A study of Xenopus laevis with 3 samples.

Results

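The genes examined here encode 9 proteins that build, anchor or regulate the actin of the hair bundle: myo6, ush1c, rdx, triobp, clic5, cib2, eps8, elmod3 and lmo7. They were taken by name from the probe sets that carry exactly 1 gene symbol in the annotation of the array, after the ending for the homeologous copy (L or S) was dropped. The rule found 10 of 15495 such probe sets (Xl-PSIDs), which stand for 9 of 9240 named genes. The rule itself uses no expression value, although the genes were proposed with earlier results of these data known. Each gene had 1 Xl-PSID except lmo7, which had 1 for each copy.

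Inner ears came from post metamorphic Xenopus laevis juveniles aged about 3 months, and 3 replicates formed the only group. Replicates 1, 2 and 3 pooled the RNA of 5, 5 and 6 animals, with mean weights of 9, 9.6 and 9.6 g. Each pool was hybridised to 1 GeneChip array (Affymetrix) made for this species, and values are log2 intensities in arbitrary units after preprocessing with GCRMA, a method that corrects background from probe sequence. The animals carried no allele, transgene or treatment named in the labels. Arrays of larval ears were not used here.

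The hair bundle is the mechanosensory organelle at the apex of each auditory and vestibular hair cell. It is a staircase of stereocilia, each a core of parallel actin filaments that tapers at its base and continues as a dense rootlet into the cuticular plate, a mesh of actin beneath the apical membrane. Tip links join neighbouring stereocilia and pull on the transduction channels when the bundle is deflected, and scaffold proteins fasten those links and the membrane to the actin core. Loss of any of several of these proteins causes deafness or vestibular dysfunction in mice or humans. Most of them are not restricted to hair cells, since related actin structures occur in the microvilli and junctions of other epithelia.

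The dissected tissue was first checked against markers of its cell types, where a probe set counted as detected at a mean intensity of 4 or more. This value was borrowed from the study's methods, which required it of transcripts called upregulated and did not use it as a call of detection. Of all named genes, 80.2% had at least 1 detected probe set, so detection of a marker says little by itself. Of 6 hair cell markers with a probe set, 4 were detected. The 2 of highest mean were pvalb (12.22 ± 0.32, SD, n = 3), a calcium buffer also abundant in muscle, and the splicing regulator rbm24 (10.95 ± 0.20). Of 3 Xl-PSIDs for rbm24, the lowest had a mean of 4.07, close to the minimum. All 13 measured skeletal muscle markers, pvalb among them, were detected too. Which cells gave the pvalb and rbm24 signal was not tested. In the hair cell list 2 transcription factors, barhl1 (1.87) and lhx3 (2.10), stayed below the minimum. The other 14 entries of that list, among them atoh1, pou4f3, myo7a and otof, had no probe set under these exact symbols. Of 11 supporting cell markers 8 were detected, led by the gap junction protein gjb2 (14.89 ± 0.03) and the Notch ligand jag1 (13.36 ± 0.17), and cdkn1b, prox1 and lfng were not. Array medians over all 32539 Xl-PSIDs besides controls were 7.57, 7.49 and 7.53, and no pair of arrays held identical columns.

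All 9 genes were detected, with every one of their 10 Xl-PSIDs at or above the minimum on each array. Means ranged from 8.62 for cib2 to 12.72 for myo6. As background, 72.8% of the Xl-PSIDs with 1 gene symbol and 64.4% of all Xl-PSIDs reached a mean of 4. At the level of genes, 80.2% of all named genes had at least 1 detected Xl-PSID and 66.5% had every Xl-PSID detected, so detection of a named gene was common. A limma test of whether the mean exceeded 4 (one-sided), fitted across all 32539 Xl-PSIDs, passed 10 of 10 members with Benjamini-Hochberg adjusted p from 1.12e-05 for rdx to 6.75e-04 for lmo7.L, against 62.2% of all Xl-PSIDs. The median of the member means was 11.04, beside 8.79 over Xl-PSIDs with 1 symbol and 7.53 over all. Brightness also depends on the probes of each Xl-PSID, so these values place each gene against the minimum and give no order of transcript abundance between genes.

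**Figure D1:**
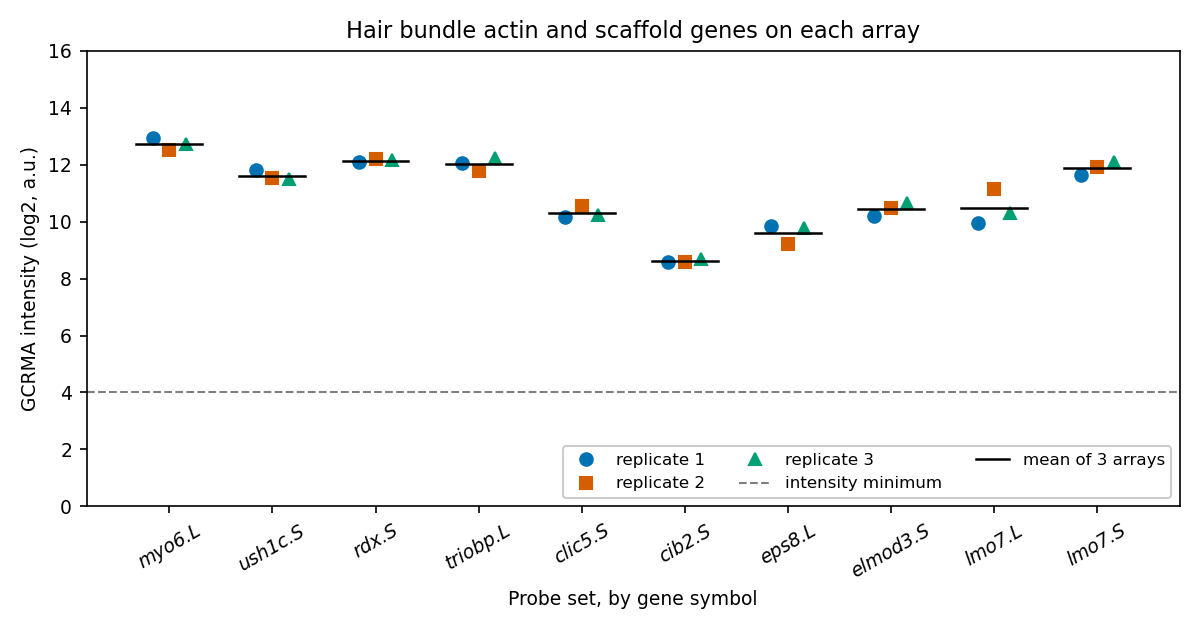
GCRMA intensity (log2, arbitrary units) of the 10 Xl-PSIDs on each of the 3 arrays. Circles, squares and triangles are replicates 1, 2 and 3, the short black line is their mean, and the dashed line is the intensity minimum of 4. All points lie above 8.5, and the widest scatter is that of lmo7.L.

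**Figure D2:**
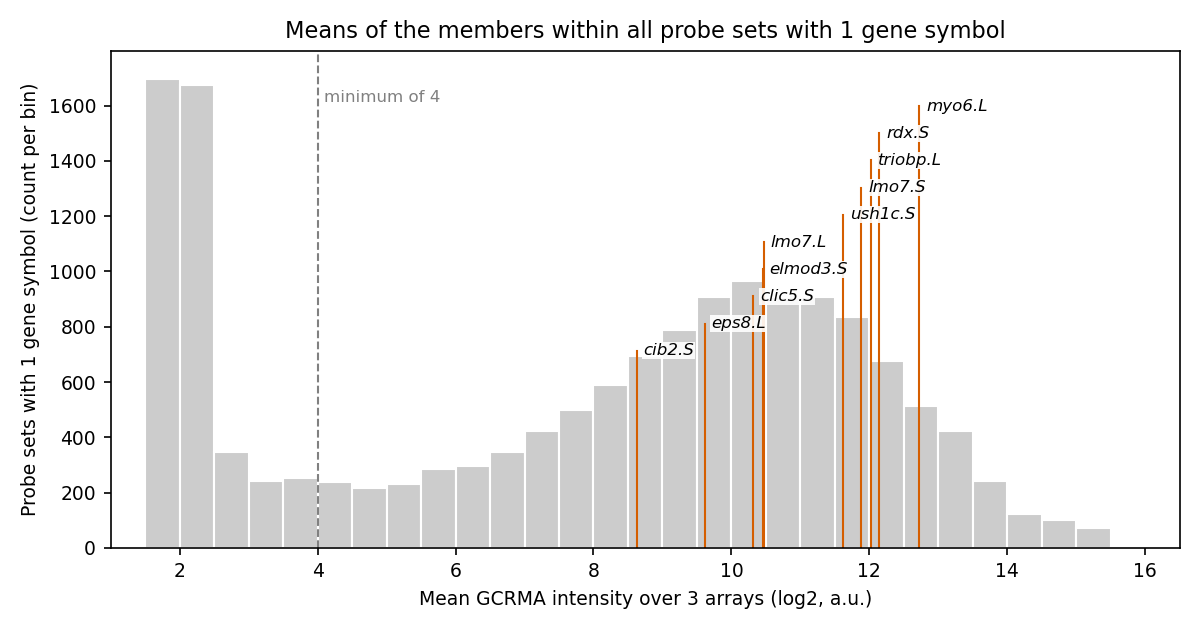
Count of Xl-PSIDs with 1 gene symbol per bin of 0.5 of mean intensity (log2, arbitrary units, over 3 arrays), with an orange line at the mean of each member; line heights only separate the names. The dashed line is the minimum of 4. The members lie in the broad upper mode, from 8.62 to 12.72, and none in the peak near 2 that holds Xl-PSIDs at the floor of the scale.

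The scaffold and calcium binding proteins of the transduction machinery came first. Harmonin, the product of ush1c, is a PDZ domain scaffold that couples the tip link cadherin to the actin core, and its loss causes Usher syndrome. The Xl-PSID for ush1c.S read 11.82, 11.53 and 11.49 on replicates 1, 2 and 3. Replicate 1 was the highest and the other arrays lay close together, for a mean of 11.61 ± 0.18 (moderated 95% confidence interval 11.29 to 11.94). Cib2, a calcium and integrin binding protein of the transduction channel complex in mouse hair cells, read 8.59, 8.59 and 8.70. These 3 values hardly differed, with a mean of 8.62 ± 0.06 (8.51 to 8.74). Of all detected Xl-PSIDs, 90.8% had a wider range over the replicates than cib2.

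Motors and linkers of the stereocilia base and apical membrane were examined next. Myo6 encodes myosin VI, which moves toward the pointed ends of actin filaments and in mouse anchors the membrane at the base of stereocilia. It read 12.94, 12.50 and 12.73 on replicates 1, 2 and 3 (mean 12.72 ± 0.22, 95% confidence interval 12.33 to 13.11), lowest on replicate 2. Rdx encodes radixin, a linker of membrane proteins to actin that is concentrated near the stereocilia base. It read 12.08, 12.18 and 12.17, the narrowest range among the members at 0.10, and 92.3% of detected Xl-PSIDs varied more. Clic5, a chloride intracellular channel family protein that lies with radixin at the base of the bundle in mouse, read 10.17, 10.54 and 10.24. It was highest on replicate 2, with a mean of 10.32 ± 0.20 (9.96 to 10.67).

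The rootlet and the cuticular plate were represented by triobp and lmo7. Triobp, whose product bundles actin filaments into the rootlet, read 12.06, 11.77 and 12.23 on replicates 1, 2 and 3, lowest on replicate 2 (mean 12.02 ± 0.23, 95% confidence interval 11.60 to 12.45). Lmo7, a LIM and PDZ domain protein of junctions and, in mouse hair cells, of the cuticular plate, was measured on both copies. The Xl-PSID for lmo7.S read 11.63, 11.93 and 12.10 (mean 11.88 ± 0.24), and that for lmo7.L read 9.94, 11.16 and 10.31 (mean 10.47 ± 0.62). Both copies were lowest on replicate 1, whereas the highest value fell on replicate 3 for lmo7.S and on replicate 2 for lmo7.L. The moderated interval of lmo7.L, 9.35 to 11.59, was the widest of the members.

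Eps8 and elmod3 completed the set. Eps8 caps and bundles actin and, at stereocilia tips in mouse, is needed for stereocilia to reach their full length. It read 9.85, 9.21 and 9.78 on replicates 1, 2 and 3, so that replicate 2 stood below the other arrays (mean 9.61 ± 0.35, 95% confidence interval 8.98 to 10.24). Without replicate 2, the eps8 values differed by 0.068. Elmod3 encodes a GTPase activating protein for small GTPases of the Arl family and is a gene for human deafness. It read 10.21, 10.48 and 10.67, lowest on replicate 1 and highest on replicate 3 (mean 10.45 ± 0.23, 10.04 to 10.87).

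Differences between the pools were then compared for the members, with the range between the highest and lowest array as the measure and no test, since each pool was hybridised once. No member reached a range of 1.5 on the log2 scale, where 2.89% of detected Xl-PSIDs did. A range of 1 was reached by lmo7.L alone, at 1.21 or 2.32-fold, against 8.44% of detected Xl-PSIDs. A range of 0.5 was reached by lmo7.L and eps8 (0.64), or 2 of 10 members against 34.0%. The median range was 0.45 for the members and 0.37 for all detected Xl-PSIDs. The value of lmo7.L rested on replicate 2: without it the range was 0.37, without replicate 3 it was 1.21 and without replicate 1 it was 0.85.

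No array was uniformly high or low for these genes. Replicate 1 held the highest value for 3 members and the lowest for 6, replicate 2 the highest for 3 and the lowest for 3, and replicate 3 the highest for 4 and the lowest for 1. Of all 20942 detected Xl-PSIDs, 7163, 6758 and 7021 were highest on replicates 1, 2 and 3. The lowest value fell on these arrays for 6532, 7365 and 7045. The median difference between an array and the mean of the other arrays was -0.08, -0.0044 and 0.07 for the members on replicates 1, 2 and 3, beside 0.01, -0.01 and 0.00 for all detected Xl-PSIDs. Myo6, triobp and eps8 were lowest on replicate 2, and of these myo6 and eps8 were highest on replicate 1. Elmod3 and lmo7.S were both lowest on replicate 1 and highest on replicate 3. In pooled tissue, fewer cells of a type and less RNA per cell cannot be told apart.

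Markers of other tissues in the dissections also differed between the pools, with the widest median differences for neurons, skeletal muscle and pigment cells. Of 22 detected Xl-PSIDs for neuron markers, 19 were highest on replicate 1 and 20 lowest on replicate 3, with medians of 1.26 and -1.08 against the other arrays, and their mean levels were 10.72, 9.85 and 9.11 on replicates 1, 2 and 3. The mean levels of detected markers had the same order for Schwann cells (12.50, 12.24 and 11.98), skin and glands (12.44, 12.40 and 11.51), leukocytes (8.69, 8.53 and 8.19) and cartilage and bone (12.66, 12.65 and 12.27). By Xl-PSID, however, 8 of 14 detected for skin and glands and 5 of 7 for leukocytes were highest on replicate 2. For Schwann cells 4 of 7, and for cartilage and bone 5 of 7, were highest on replicate 1. Ush1c, highest on replicate 1 and lowest on replicate 3, shared the order of the mean levels of all 5 lists, neurons included. Its values on replicates 2 and 3 differed by only 0.05, where the median absolute difference of detected Xl-PSIDs was 0.23. With 3 arrays few orders are possible, so a shared order says little by itself. The mean level of detected erythrocyte markers was highest on replicate 2 (8.48, 9.51 and 8.13), as were 9 of their 13 detected Xl-PSIDs. By gene, and named after their values were seen, the globins hbg2 (3.40, 6.87 and 2.66) and hba4 (4.64, 7.62 and 4.80) differed most. Others hardly differed, with hbg1 at 15.16, 15.17 and 15.21, alas2 at 10.11, 9.93 and 10.13 and slc4a1 at 9.96, 10.07 and 10.04. Of 23 detected Xl-PSIDs for skeletal muscle, 17 were highest on replicate 3 and 13 lowest on replicate 2, with medians of 0.83 and -0.89, and their mean level was 8.61, 7.93 and 9.15. Triobp had the same order as this muscle mean, lowest on replicate 2 and highest on replicate 3. Pigment cell markers were lowest on replicate 1 for 4 of 4 detected Xl-PSIDs (median -0.78), as were rdx, cib2, clic5, elmod3 and both copies of lmo7. Replicate 1 less the next lowest array was, however, only -0.0039 for cib2, -0.07 for clic5 and -0.09 for rdx. By gene, 14 of 16 neuron, 13 of 13 skeletal muscle and 3 of 4 pigment cell markers were detected, beside 80.2% of all named genes. So were 4 of 5 for Schwann cells, 5 of 7 for skin and glands and 10 of 11 for erythrocytes. For leukocytes the count was 5 of 7, and for cartilage and bone 5 of 6. Detected hair cell and supporting cell markers had medians between -0.08 and 0.08 on every array. Their mean levels were 9.03, 8.65 and 8.56 for hair cells and 11.38, 11.34 and 11.31 for supporting cells, also in the order of ush1c. By Xl-PSID the order was not shared throughout. Of 7 for hair cells, 3, 2 and 2 were highest on replicates 1, 2 and 3, and of 13 for supporting cells 7, 3 and 3. Within the hair cell list the calcium binding protein calb1, named after its values were seen, read 9.35, 7.58 and 6.96, a range of 2.38. Kcnma1, also named after its values were seen, had the same order with smaller differences (7.49, 7.40 and 7.18). Pvalb was highest on replicate 3 and rbm24 lowest on replicate 1. The paper reports that the RNA of all replicates met a minimum RNA integrity number. As a further measure of RNA quality, the 5′ value less the 3′ value of the array's control probe sets was compared between arrays. It was lowest on replicate 3 for ef1a (-3.13, -3 and -3.87 on replicates 1, 2 and 3) and gapdh (-1.13, -1.04 and -1.36). For actin it was -12.63, -12.62 and -12.57, close to the span of the scale (1.62 to 15.93). An actin 5′ value so near the floor cannot show a difference in RNA quality. The part of these tissues and of RNA quality in the members' differences was not tested.

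**Figure D3:**
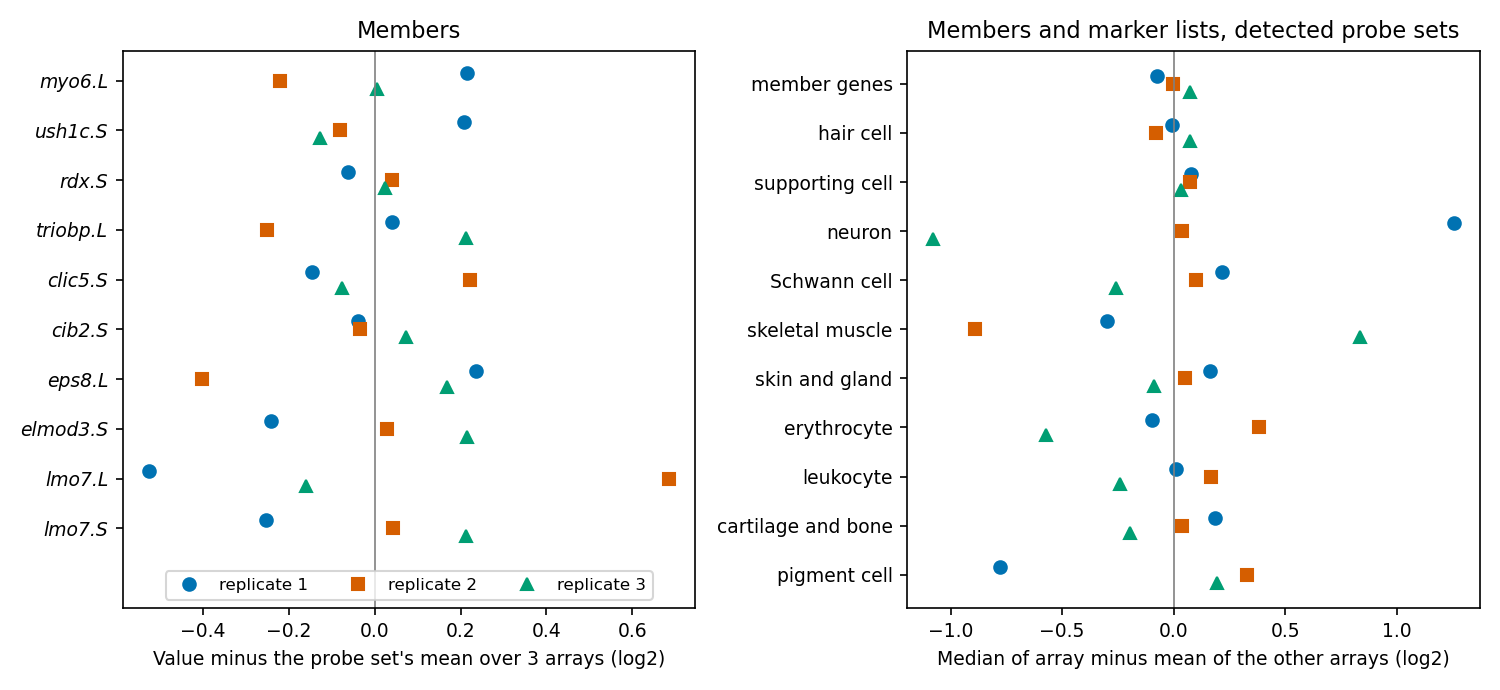
Left, value of each member on replicates 1, 2 and 3 (circles, squares, triangles) minus its mean over the 3 arrays (log2). Right, median over detected Xl-PSIDs of the value on an array minus the mean of the other arrays (log2), for the members and for marker lists with at least 3 detected Xl-PSIDs. The medians of the members, whose differences run both ways, lie between -0.08 and 0.07, while those of neuron markers run from -1.08 to 1.26 and those of skeletal muscle from -0.89 to 0.83.

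Because myo6, ush1c and eps8 also serve the brush border of absorptive epithelia, markers of kidney and gut were examined. Of 8 measured, 1 was detected, beside 80.2% of all named genes. It was the endocytic receptor lrp2 (13.84 ± 0.13), which is also known from other epithelia. The microvillar actin bundling protein vil1 was at 2.05, the intestinal fatty acid binding protein fabp2 at 2.25, the microvillar protocadherin cdhr5 at 2.08 and the podocyte protein nphs1 at 1.95, all near the floor of the scale. The water channel aqp2 read 2.35, 3.26 and 3.76 on replicates 1, 2 and 3, below the minimum on each array. Cdx1 (2.02) and cdx2 (1.86) were also undetected. Only ears were dissected, so low kidney and gut markers say nothing about microvilli of the ear's own epithelia. Which cells gave the signal of myo6, ush1c and eps8 was not tested.

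Around the members, 9 lists held 139 entries. They covered other hair bundle genes, actin regulators, and relatives or partners of the members, such as Arf GTPases and endocytic adaptors. An Xl-PSID with 1 symbol existed for 65 entries. Of these, 60 (92.3%) were detected, against 80.2% of all named genes, and the limma test of a mean above 4 passed the same number. With every Xl-PSID of a gene required, 47 of the 65 were detected, against 66.5% of all named genes. A gene with more Xl-PSIDs passes the looser rule more easily. The 65 genes had 137 Xl-PSIDs, and the 9240 named genes had 15495. Among the 38 genes with several Xl-PSIDs, 13 had both detected and undetected ones. The undetected genes were gpsm2, twf1, tax1bp1, tom1 and nectin1, with highest means from 1.97 to 2.14. The median gene mean was 11.72 for the lists and 9.67 over all named genes. None of the 10 genes listed for the tip link and the transduction channel had an Xl-PSID under its exact symbol, among them tmc1, tmie, lhfpl5, cdh23 and pcdh15. Of 13 entries for Usher and ankle link proteins besides ush1c, only the junction protein vezt was measured (12.15 ± 0.20). Cib2 and ush1c were thus measured without the channel and cadherins they serve.

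Linkers of membrane to actin and relatives of clic5 were all detected, 9 of 9, beside 80.2% of all named genes. With every Xl-PSID required the count was 8 of 9, beside 66.5%. The other members of the radixin family were ezr (10.59 ± 0.12) and msn (12.37 ± 0.10), and a second Xl-PSID for ezr lay at 1.84. Their relative nf2, a tumour suppressor, read 10.78, 10.74 and 10.77. The PDZ adaptors slc9a3r1 and slc9a3r2, which bind proteins of this family to membrane partners, were at 11.62 ± 0.26 and 13.48 ± 0.15. Besides clic5, the family of chloride intracellular channels had clic1 (12.96 ± 0.09), clic4 (12.38 ± 0.18) and clic3, which read 4.33, 4.37 and 4.33. Clic3 was close to the minimum on every array and still passed the limma test (adjusted p = 4.77e-04).

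Other myosins and partners of myosin VI were examined beside myo6. Of 14 entries for myosins of the bundle 4 were measured and, beside 80.2% of all named genes, all 4 were detected. These were the adaptation motor myo1c (12.99 ± 0.13), the nonmuscle myosins myh9 (12.83 ± 0.11) and myh10 (10.82 ± 0.22), and the cargo motor myo5a. Myo5a read 8.16, 7.45 and 7.00 on replicates 1, 2 and 3. The mean levels of neuron, Schwann cell, skin and gland, leukocyte, cartilage and bone, hair cell and supporting cell markers had the same order. By Xl-PSID, however, 8 of 14 detected for skin and glands and 5 of 7 for leukocytes were highest on replicate 2. With 3 arrays few orders are possible, so this shared order says little by itself. The part of these tissues in the myo5a values was not tested. Among partners of myosin VI, 6 of 8 were detected, beside 80.2% of all named genes, but not tom1 (1.98) or tax1bp1 (2.003). With every Xl-PSID required, 3 of the 8 were detected, beside 66.5% of all named genes. The endocytic adaptor dab2 was at 12.80 ± 0.05, with 3 of 4 Xl-PSIDs detected, and tom1l2 at 12.19 ± 0.18. The PDZ adaptor gipc1 was at 11.22 ± 0.12, with a second Xl-PSID at 1.99. Its relative gipc2 read 10.13, 11.29 and 10.97, lowest on replicate 1 and highest on replicate 2.

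Actin, its crosslinkers and the proteins that set filament length were examined beside eps8. All 8 measured genes for actin and crosslinkers were detected, led by the cytoplasmic actins actg1 (14.76 ± 0.07) and actb (14.50 ± 0.11). With every Xl-PSID required, 5 of the 8 were detected. The shares of all named genes were 80.2% with at least 1 Xl-PSID and 66.5% with every one. The plastin pls3 was at 13.04 ± 0.04 and the fascin fscn1 at 11.75 ± 0.29, while at the lower end lay actn1 (11.72 ± 0.34) and the leukocyte plastin lcp1 (7.47 ± 0.15). Each of pls3, fscn1 and actn4 also had at least 1 undetected Xl-PSID. For filament length and capping 16 of 18 were detected, or 13 with every Xl-PSID required, beside the same shares. Those of highest mean were the severing protein gsn (14.00 ± 0.19) and the capping protein subunit capzb (13.71 ± 0.03), with twf2, a capping partner found at stereocilia tips in mouse, at 11.73 ± 0.29. The relatives of eps8 were eps8l1 (8.33 ± 0.23) and eps8l3 (6.31 ± 0.13), and 2 of 3 Xl-PSIDs for eps8l3 were undetected. The polarity protein gpsm2 (1.97) was not detected, although its G protein partner gnai3 was (10.09 ± 0.14). The single Xl-PSID for gpsm2 allows no second reading.

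The apical junction and cuticular plate had 7 of 8 genes detected, beside 80.2% of all named genes. With every Xl-PSID required the count was 5 of 8, beside 66.5%. Afdn, the junction protein afadin that binds lmo7 in mammals, was at 12.19 ± 0.08 with 6 of 6 Xl-PSIDs detected. Of the tropomyosins, tpm4 (13.29 ± 0.07) and tpm3 (12.59 ± 0.12) had the highest means in this list. The spectrin sptan1 was at 7.56 ± 0.28, with 3 of 4 Xl-PSIDs detected. The adhesion protein nectin1 (2.03) was not detected, and nectin2 was (8.78 ± 0.16). Among small GTPases and relatives of elmod3, all 9 measured genes were detected, or 8 with every Xl-PSID required, beside the same shares. Elmod2, a relative of elmod3, was at 12.28 ± 0.26, and arl2, a GTPase on which elmod proteins act, was at 11.69 ± 0.15. The highest means of this list were those of arf4 (14.00 ± 0.01) and arf1 (13.39 ± 0.33), and the lowest those of arl3 (11.17 ± 0.35) and elmo1 (6.63 ± 0.11).

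**Figure D4:**
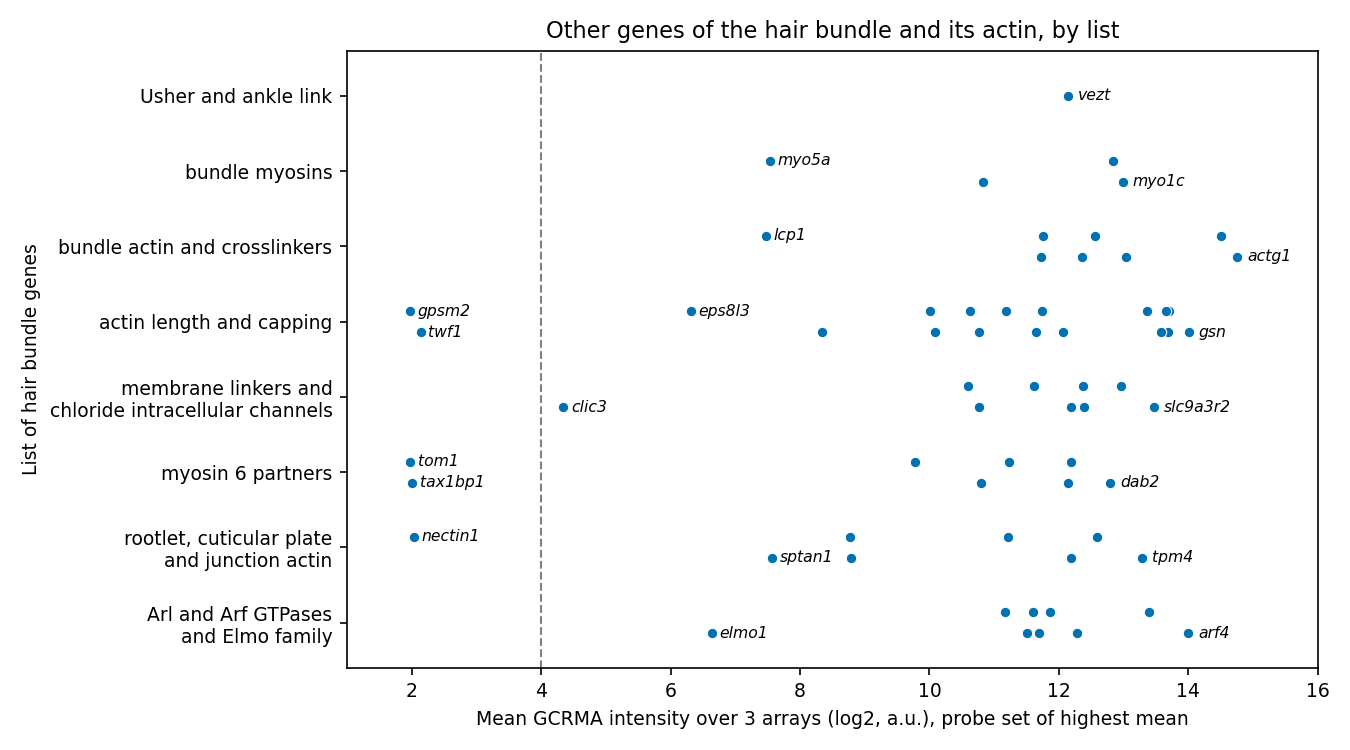
Mean GCRMA intensity (log2, arbitrary units, over 3 arrays) of the Xl-PSID of highest mean for each of the 65 measured genes, by list. Each point is 1 gene (vertical offsets only separate points), genes under 8 and the highest of each list are named, and the dashed line is the minimum of 4. The undetected genes lie near 2, and clic3 lies just above the minimum.

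Finally, the copies that these Xl-PSIDs stand for were compared with a RefSeq gene table of the species. That table holds L and S copies for 6 of the 9 genes and 1 copy, on S, for cib2, clic5 and elmod3 under these symbols. Of the 6 genes with both copies, 5 had an Xl-PSID for 1 copy only. Myo6, triobp and eps8 were measured on L, and rdx and ush1c on S. The S entry for ush1c also bears the L symbol as a synonym, so its copy is less certain. Values for the other copies were not analysed here, and each of the 10 Xl-PSIDs carries the symbol of its named copy alone. The Xl-PSIDs of any gene with both copies, lmo7 included, may take up RNA of the other copy, because the sequences of the probes were not compared. Detection of such a gene therefore does not show which copy gave the signal.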

How the data were processed

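Inner ear RNA from 3 pools of juvenile animals was amplified, labelled and hybridised by the authors to GeneChip arrays. The deposited values are log2 intensities, 1 per Xl-PSID and array, which the authors made with GCRMA in JMP Genomics. The sources used here do not say which arrays were normalized together. GCRMA compresses differences near its floor, and precision is limited by the number of arrays. The 96 control probe sets were left out. Symbols came from the platform annotation, and a RefSeq table (Xenopus_laevis_v10.1) served only for names. A probe set with a mean of 4 or more was called detected. Whether means exceeded 4 was tested across all probe sets with limma 3.58.1 under R 4.3.3, one-sided and with Benjamini-Hochberg adjustment, after a trial on simulated data. A gene takes its probe set of highest mean. Summaries used Python 3.11.15 and pandas 2.3.3.

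Members and gene lists were chosen with earlier results of these data known. All 9 members are named. In each of the 9 bundle lists the 2 genes of highest and of lowest mean follow the naming rule, and others were chosen, after their values were seen, for their relation to a member. Of hair cell and supporting cell markers the 2 of highest mean and those not detected are named, and calb1 and kcnma1 were added. The other 9 marker lists are given as counts and, except for kidney and gut, as mean levels or median differences by array. All 8 measured kidney and gut markers are named as well. So are the erythrocyte markers hbg2, hba4, hbg1, alas2 and slc4a1, chosen after their values were seen. Replicates are pools of separate animals. Alternatives were other minimums, limma-trend, other scalings, other probe set rules and leaving out each replicate.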

Additional observations from a re-analysis of the deposited data

Results flagged for a closer look

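A probe set that carries both lmo7 symbols, and so falls outside the choice of members, had signal above the minimum. It read 7.04, 7.03 and 6.90 on replicates 1, 2 and 3, a mean of 6.99 ± 0.08 (SD, n = 3), and its range of 0.15 compares with 1.21 for lmo7.L and 0.46 for lmo7.S. The 3 probe sets for lmo7 had their highest value on 3 different arrays, although replicates 1 and 2 of the shared probe set were nearly equal.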

How the results depend on the processing

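The counts of 10 member probe sets and 9 member genes detected, and of 10 passed by limma, were the same in every alternative run. These were minimums of 3, 5, 6 and 8, quantile normalization, a common median, limma-trend and testing only probe sets with 1 symbol. The others were dropping probe sets that can match several transcripts, updated symbols, and every array or every probe set required. The last were the mean over a gene's probe sets and each replicate left out (limma adjusted p up to 0.0167). Most of these could not change the detection counts, since no member value on any array lay below 8.59. That holds for the minimums, for requiring every array or probe set, for the mean over probe sets and for leaving out a replicate. No member probe set was of the kind that can match several transcripts, so dropping those removed none. The count of members with a range of 1.5 or more was 0, and became 1 at a range of 1 and 2 at a range of 0.5; it stayed at 0 with quantile normalization and a common median, and had to stay there with a replicate left out, since that cannot widen a range. Detected genes of the bundle lists numbered 47 to 60 over their alternatives. No paired analysis was possible because the 3 arrays form a single group. Depth has no meaning for these intensities, and scanner files, which would show signal over background, were not used here.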
